A study of Mus musculus with 10 samples.

Results

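The 48 genes described here drive or restrain cell division. They comprise cyclins, cyclin-dependent kinases (CDKs) and their activators, CDK inhibitors, the Rb, E2F and FoxM1 regulators, mitotic kinases, kinetochore and spindle checkpoint proteins, a coactivator and a ubiquitin-conjugating enzyme of the anaphase-promoting complex (APC/C), spindle motors and bundlers, and the proliferation markers Mki67 and Top2a. They were chosen by name, with earlier results of these data known. Their values are 48 of 23005 genes in the short-read files and those rows of the long-read tables assigned to them. Their levels were compared between mature CD4 single-positive (CD4SP) thymocytes, the helper-lineage T cells about to leave the thymus, and mature CD8 single-positive (CD8SP) thymocytes, those of the cytotoxic lineage.

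All cells came from C57BL/6 mice aged 6 to 8 weeks, with no treatment named. The thymi of several mice were combined in each sample, magnetic beads took out cells bearing the unwanted coreceptor, and a sorter kept CD4+CD8-TCRbeta+CD24- cells as CD4SP and CD8+CD4-TCRbeta+CD24- cells as CD8SP. Of 10 samples, 8 were short-read lanes, 4 per lineage, and the other two were long-read libraries, 1 per lineage. The short-read values of each lineage come as 1 value per transcript, taken as pooled over the lanes, so there is no replicate, no p-value is given, and any difference compares these pools and not the lineages at large.

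In the cell cycle, cyclins switch on CDKs, and D- and E-type cyclins with their kinases inactivate the retinoblastoma protein Rb so that E2F factors can turn on genes of DNA replication. Cyclin B with Cdk1 then starts mitosis, in which kinetochores tie chromosomes to the spindle, a checkpoint waits until all are attached, and the APC/C marks cyclin B for destruction. Mature single-positive thymocytes are mostly resting cells, and genes of this kind are known as marks of the dividing cells in a thymocyte pool.

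Gene levels are in FPKM (fragments per length of transcript, set to a common library size), so they can be set against each other across genes. A gene was called higher in a lineage where its higher FPKM was at least 1, the ratio was at least 2-fold on the log2(FPKM + 0.1) scale, and the deposited intervals did not overlap. This scale understates the change of low genes. Of the 48 genes, 46 reached 1 FPKM in either lineage, and the exceptions were Cks2 (0.270 FPKM in CD4SP, 0.740 in CD8SP) and Cdkn1a (0.0286 and 0.0173).

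Genes of division stood higher in the CD8SP pool. Of the 46 genes at 1 FPKM or more, 24 were called higher in CD8SP and 0 in CD4SP, against 10.0% and 4.76% of all 9620 genes at that level. The log2 ratio of CD8SP over CD4SP was above 0 in 43 of the 46 and ranged from -0.95 for Rb1 to 1.80 for E2f1. Its median was 1.02, and taking every gene at the near or far ends of its deposited intervals moved the median to 0.58 or 1.50. The median over all 9620 genes was 0.22. After CD8SP was scaled so that the genes at 1 FPKM in both lineages had a median log2 ratio of 0, a shift of 0.21, 19 of the 48 genes were called higher in CD8SP and 1, Rb1, in CD4SP, against 6.88% and 6.68% of all genes. In these bulk pools, more dividing cells and more of such RNA per cell cannot be told apart.

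**Figure D1:**
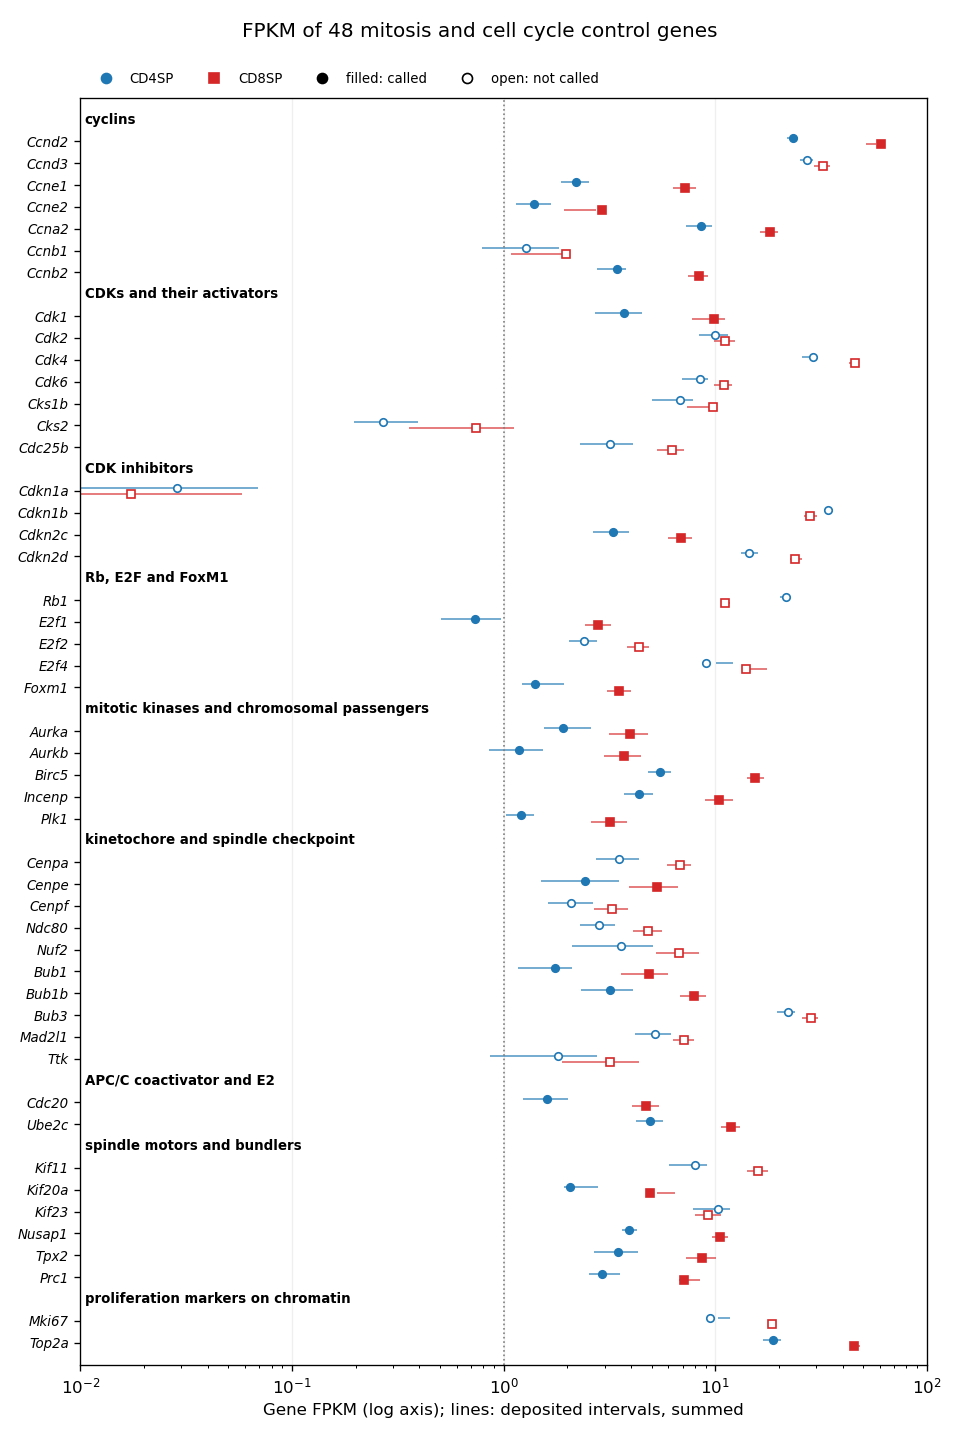
FPKM of each of the 48 genes in CD4SP (blue circles) and CD8SP (red squares) on a log axis, with lines for the summed deposited intervals and filled symbols for genes called higher in CD8SP; the dotted line marks 1 FPKM. The red symbol lies to the right of the blue one for all but Cdkn1a, Cdkn1b, Rb1 and Kif23, and in 6 genes, such as E2f4, a symbol lies outside its own interval.

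The levels of marker genes bear on what the pools held. Of the CD3 chains of the T cell receptor, Cd3e was at 170 FPKM in both pools, Cd3d at 73.6 in CD4SP and 114 in CD8SP, and Cd3g at 199 and 307. The coreceptor genes Cd4 (107 FPKM in CD4SP, 1.69 in CD8SP) and Cd8b1 (32.9 and 505) separated the pools as labelled. Genes of double-positive and immature thymocytes moved the other way from the cell cycle genes: their summed level was 52.9 FPKM in CD4SP and 33.2 in CD8SP over 10 genes, and of the 8 at 1 FPKM or more 3 were called higher in CD4SP and 1, Kit, in CD8SP. Among them Rag1, the recombinase of precursor cells, was at 12.5 FPKM in CD4SP and 4.12 in CD8SP. Myeloid and dendritic genes summed to 11.8 and 5.64 FPKM over 11 genes, and erythroid genes to 6.79 and 4.65 over 6. Of 7 B cell genes, Pax5 was listed at 0 in both pools, while Cd79b was at 0.583 in CD4SP and 5.49 in CD8SP. Thymic epithelial and endothelial genes summed to 23.7 and 15.9 FPKM over 7, nearly all of it Pecam1 (22.4 and 14.8). The part of other cells in the result was not tested.

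Many genes of G2 and mitosis carry a cell cycle homology region (CHR) near their start, a short element bound by the DREAM and MuvB complexes that hold such genes down in resting cells, often a short way after a CCAAT box bound by NF-Y. Promoters of 300 bases (250 before and 50 after the RefSeq start, GRCm38.p6) were at hand for 38 of the 48 genes, in 44 promoters. The genes not matched were Aurkb, Ccna2, Ccne2, Ccnd2, Rb1, E2f4, Kif20a, Tpx2, Incenp and Foxm1. The CHR was searched as TTTGAA and TTCGAA, the CCAAT box as CCAAT, and E2F-like sites as GCGGGAA and GCGCGAA, each on both strands, and none of these words contains another. CHR letters occurred in 21 of the 38 genes (55.3%) and in 19.2% of all 32851 promoters. CCAAT letters occurred in 28 genes (73.7%) and in 37.4% of all promoters, and E2F-like letters in 3, Cdk1, Cdk2 and Cdkn2c (7.89%), and in 6.00% of all promoters. Genes with more than 1 listed start have more promoters in which to match than a single promoter has, so the shares of genes and of promoters are not on the same footing; counted by promoter, CHR letters were in 23 of 44 and CCAAT letters in 31.

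CCAAT letters that began 20 to 40 bases before CHR letters, a spacing set after the matches had been seen, were found in 13 of the 38 genes (34.2%), or 15 of 44 promoters, and in 0.968% of all promoters. This pair stood on both sides of the call: 6 of the 16 matched genes called higher in CD8SP had it, and 7 of the other 22. The windows below run from base -120 to base -10 before the start, 5′ to 3′ on the gene's strand, with every CCAAT and CHR match in capitals, and show 6 genes whose pair lies in that stretch and outside GENCODE M21 exons but for at most 30 bases.
Cdk1: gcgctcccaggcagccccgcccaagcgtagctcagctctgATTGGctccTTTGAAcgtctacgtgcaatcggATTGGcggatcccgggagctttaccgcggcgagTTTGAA
Cdc20: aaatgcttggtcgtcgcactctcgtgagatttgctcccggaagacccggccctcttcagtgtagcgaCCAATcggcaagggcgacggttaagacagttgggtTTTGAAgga
Ube2c: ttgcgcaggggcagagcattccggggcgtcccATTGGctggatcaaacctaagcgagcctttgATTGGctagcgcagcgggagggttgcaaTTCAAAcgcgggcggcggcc
Top2a: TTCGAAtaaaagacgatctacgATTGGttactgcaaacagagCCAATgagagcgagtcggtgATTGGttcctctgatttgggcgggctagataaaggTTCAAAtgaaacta
Kif11: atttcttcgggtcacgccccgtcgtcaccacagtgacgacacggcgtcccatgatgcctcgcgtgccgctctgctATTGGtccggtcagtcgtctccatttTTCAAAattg
E2f2: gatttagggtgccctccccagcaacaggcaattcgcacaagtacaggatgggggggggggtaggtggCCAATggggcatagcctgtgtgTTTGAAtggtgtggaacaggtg
These windows lie at chr10:69352922-69353032 (Cdk1, minus strand), chr4:118437353-118437463 (Cdc20, minus), chr2:164769809-164769919 (Ube2c, plus), chr11:99024199-99024309 (Top2a, minus), chr19:37376262-37376372 (Kif11, plus) and chr4:136180662-136180772 (E2f2, plus, the second of its listed starts). In the pair nearest the start, the first bases of the CCAAT box and of the CHR were 33 bases apart in Cdk1, 35 in Cdc20 and Top2a, 28 in Ube2c, 26 in Kif11 and 22 in E2f2. Cdk1, Cdc20, Ube2c and Top2a were called higher in CD8SP, and Kif11 and E2f2 were not. A match is a description of letters, and no binding was measured.

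**Figure D2:**
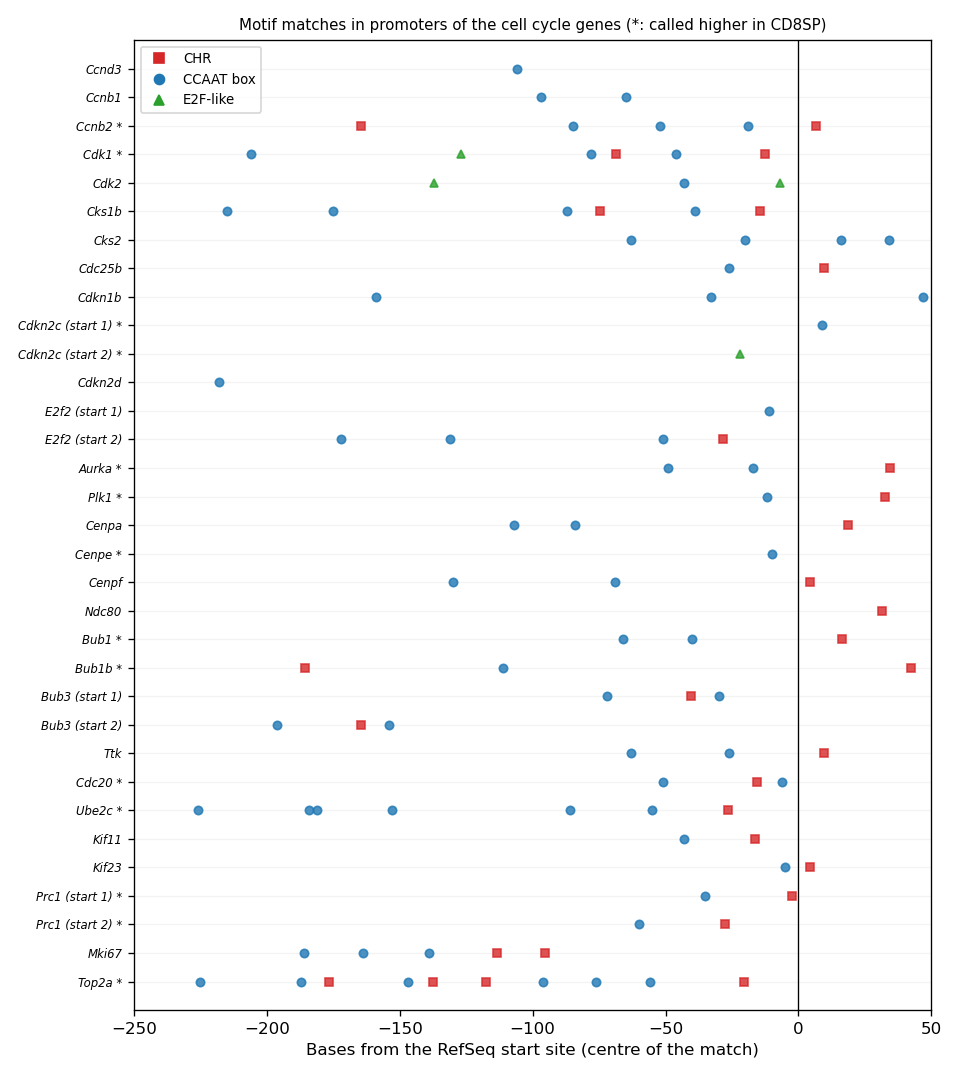
Positions of CHR (red squares), CCAAT box (blue circles) and E2F-like (green triangles) matches in bases from the RefSeq start site, 1 row per promoter of the cell cycle genes with any match; stars mark genes called higher in CD8SP. In Cdk1, Cdc20, Ube2c, Kif11 and Top2a a red square before the start has a blue circle 26 to 35 bases to its left.

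Among the cyclins, 5 of 7 were called higher in CD8SP, with a median log2 ratio of 1.07, and 3 after scaling. Ccne1, which with Cdk2 drives entry into S phase (chr7:38097984-38107490, GRCm38), was at 2.20 FPKM in CD4SP and 7.20 in CD8SP, with a log2 ratio of 1.67, the largest of the group. Ccna2, the cyclin of S phase and G2, was at 8.53 and 18.1 FPKM (1.07, and 0.86 after scaling, under the threshold), and the mitotic cyclin Ccnb2 at 3.43 and 8.33 (1.26). The second E-type cyclin, Ccne2, was at 1.39 and 2.91 FPKM (1.01, and 0.81 after scaling), just past the threshold before scaling, and its CD8SP value lay outside its own interval of 1.95 to 2.71. All of the Ccne2 FPKM in CD4SP lay on 4 assembled transcripts, and all of it in CD8SP on RefSeq transcripts. Ccnb1, the main mitotic partner of Cdk1, was low in both pools, at 1.28 and 1.98 FPKM, with overlapping intervals, and it was not called. Nearly all of its FPKM lay on assembled transcripts, 97.1% in CD4SP and 100% in CD8SP. Its CD8SP value lay outside its interval of 1.10 to 1.88.

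The D-type cyclins, which respond to growth signals, were the most abundant of the 7 cyclins in both pools. Ccnd3 was at 27.0 FPKM in CD4SP and 32.1 in CD8SP, with a log2 ratio of 0.25, and was not called. Ccnd2 (chr6:127125162-127152188) was at 23.2 FPKM in CD4SP and 60.8 in CD8SP, with a log2 ratio of 1.39, and was called. Its value depended on how transcripts were summed. In CD8SP its RefSeq transcript was listed at 0 and 100% of the gene's FPKM lay on 5 assembled transcripts, against 35.8% in CD4SP, and the sum lay outside its interval of 52.2 to 57.1 FPKM. On the exon-based value, in which each transcript is weighted by how much of the RefSeq exons of the gene it covers, Ccnd2 was at 29.5 FPKM in CD4SP and 49.8 in CD8SP, with a log2 ratio of 0.75, and was not called.

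Of the CDKs and their activators, 1 of the 6 at 1 FPKM or more was called higher in CD8SP, and the median log2 ratio was 0.58. That gene was Cdk1, the mitotic kinase (chr10:69335146-69352912), at 3.69 FPKM in CD4SP and 9.89 in CD8SP, with a log2 ratio of 1.40. The G1 kinases were more abundant and nearer to each other between pools: Cdk4 was at 28.8 and 45.5 FPKM (0.66) and Cdk6 at 8.44 and 11.0 (0.38). Cdk2, the S phase kinase, was at 9.92 and 11.1 FPKM (0.16, and -0.05 after scaling), with overlapping intervals. Cks1b, a small CDK-binding subunit, was at 6.80 and 9.74 FPKM (0.51). Cdc25b, the phosphatase that activates CDKs ahead of mitosis, was at 3.18 and 6.21 FPKM, and its log2 ratio of 0.95 fell just short of the threshold.

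The CDK inhibitors did not move as a group, with 1 of the 3 at 1 FPKM or more called higher in CD8SP and none after scaling. Cdkn1b (p27), an inhibitor abundant in resting lymphocytes, had the highest level of them in both pools, at 34.1 FPKM in CD4SP and 28.1 in CD8SP, with a log2 ratio of -0.28. The INK4 inhibitors of Cdk4 and Cdk6 lay on the other side: Cdkn2d (p19) was at 14.5 and 23.9 FPKM (0.71, not called) and Cdkn2c (p18) at 3.27 and 6.86 (1.05, called). Cdkn2c had 33.4% of its FPKM on assembled transcripts in CD4SP and 72.7% in CD8SP, and with RefSeq transcripts alone its log2 ratio was -0.21. Cdkn1a (p21), a target of p53, was under 0.1 FPKM in both pools.

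The Rb and E2F group held both ends of the range. Rb1, which holds E2F factors inactive (chr14:73192858-73325951), was at 21.5 FPKM in CD4SP (interval 20.5 to 22.3) and 11.1 in CD8SP (10.7 to 11.6), a log2 ratio of -0.95. It was the lowest ratio of the 46 genes, just short of the threshold, and past it after scaling (-1.16). E2f1, an activating E2F factor (chr2:154559400-154569892), was at 0.733 FPKM in CD4SP and 2.80 in CD8SP, and its log2 ratio of 1.80 was the highest. Foxm1, the factor that turns on genes of G2 and mitosis, was at 1.40 and 3.52 FPKM (1.27) and was called. E2f2 was at 2.39 and 4.35 FPKM (0.84) and E2f4, a repressive E2F factor of resting cells, at 9.01 and 14.0 (0.63); neither was called, and both E2f4 values lay outside their own intervals.

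All 5 mitotic kinases and chromosomal passengers were called higher in CD8SP, with a median log2 ratio of 1.33, and 4 after scaling. Aurkb, Incenp and Birc5 (survivin) form the chromosomal passenger complex, which corrects faulty attachments of chromosomes to the spindle. Aurkb was at 1.18 FPKM in CD4SP and 3.72 in CD8SP (1.58), Birc5 at 5.50 and 15.4 (1.47) and Incenp at 4.34 and 10.4 (1.25). Plk1, a kinase needed for spindle assembly and cytokinesis, was at 1.21 and 3.18 FPKM (1.33). Aurka, the kinase of the spindle poles, was at 1.90 and 3.96 FPKM (1.02), and it was the gene of the group that scaling took below the threshold.

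Of the 10 kinetochore and checkpoint genes, 3 were called higher in CD8SP and all 10 log2 ratios were above 0, with a median of 0.84. The called genes were Bub1, a checkpoint kinase, at 1.75 FPKM in CD4SP and 4.87 in CD8SP (1.42), Bub1b (BubR1), a part of the complex that blocks the APC/C, at 3.17 and 7.91 (1.29), and Cenpe, the kinetochore motor, at 2.42 and 5.32 (1.11, under the threshold after scaling). Their partners in the checkpoint had lower ratios and were not called. Bub3 was at 22.1 and 28.3 FPKM (0.36), Mad2l1 at 5.18 and 7.11 (0.45) and the kinase Ttk (Mps1) at 1.80 and 3.17 (0.78, overlapping intervals).

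Cenpa, the histone variant that marks centromeres, was at 3.52 FPKM in CD4SP and 6.81 in CD8SP (0.93). Ndc80 and Nuf2, which form the arm that binds microtubules, were at 2.81 and 4.83 FPKM (0.76) and at 3.57 and 6.71 (0.89). Cenpf was at 2.07 and 3.25 FPKM (0.63). None of the 4 was called, and Nuf2 passed the threshold on the exon-based value (1.26).

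Both APC/C genes of the set were called higher in CD8SP. Cdc20, the coactivator that the checkpoint holds in check, was at 1.61 FPKM in CD4SP and 4.72 in CD8SP (1.49), and Ube2c, the ubiquitin-conjugating enzyme that works with the APC/C, at 4.91 and 11.8 (1.24). In a list of 16 other APC/C genes, its subunits with the coactivator Fzr1 and the enzyme Ube2s, the median log2 ratio was 0.11, with 1 gene called in each direction. Over all genes the median was 0.22, with 10.0% called higher in CD8SP and 4.76% in CD4SP.

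Among spindle motors and bundlers, 4 of 6 were called higher in CD8SP, before and after scaling, with a median log2 ratio of 1.24. Nusap1, a microtubule-bundling protein, was at 3.93 FPKM in CD4SP and 10.5 in CD8SP (1.39), Tpx2, the activator of Aurora A, at 3.46 and 8.65 (1.30), and Prc1, which crosslinks the central spindle, at 2.92 and 7.11 (1.26). Kif20a, a kinesin of cytokinesis, was at 2.05 and 4.90 FPKM (1.22), and its CD8SP value lay outside its interval of 5.36 to 6.37. Kif11, the motor that pushes spindle poles apart, was at 8.02 and 15.9 FPKM (0.98, not called).

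Kif23, the kinesin of the central spindle that works with Racgap1 in cytokinesis, was the exception, at 10.3 FPKM in CD4SP and 9.26 in CD8SP, with a log2 ratio of -0.15 with overlapping intervals. Most of its FPKM lay on assembled transcripts, 87.1% in CD4SP and 73.5% in CD8SP, and its exon-based value was 5.43 FPKM in CD4SP and 7.46 in CD8SP (0.45). The proliferation markers were the last group. Top2a, the topoisomerase that untangles chromosomes (chr11:98992947-99024199), was at 18.7 and 45.4 FPKM (1.28, called), and Mki67, which coats mitotic chromosomes, at 9.47 and 18.5 (0.96, not called), with a CD4SP value outside its interval of 10.4 to 11.6.

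**Figure D3:**
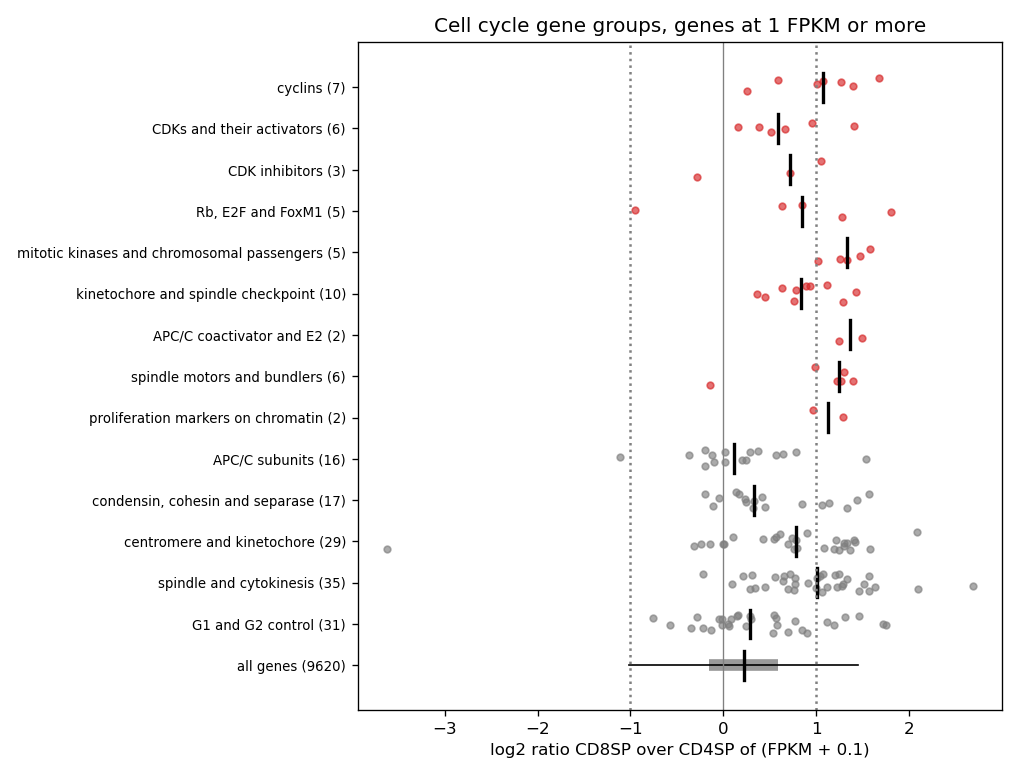
Log2 ratio of CD8SP over CD4SP on the FPKM + 0.1 scale for genes at 1 FPKM or more, by group of the 48 genes (red points) and by list of other cell cycle genes (grey points), with the number of genes in brackets and a black bar at each median. For all genes the thick bar spans the 25th to 75th percentile (-0.16 to 0.59) and the thin line the 5th to 95th (-1.02 to 1.45), and the group medians run from 0.58 for CDKs to 1.37 for the APC/C pair.

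How the FPKM of a gene was gathered changed some calls. The median share of a gene's FPKM on assembled transcripts was 35.3% in CD4SP and 29.7% in CD8SP. The share was higher in called genes such as Cdk1 (74.3% and 72.6%), Top2a (70.5% and 59.1%) and Cenpe (71.4% and 79.8%). It was lower in others, such as Ube2c (5.45% and 4.57%). Some called genes had exon-based levels well under their gene FPKM. Such levels were 1.66 FPKM in CD4SP and 4.87 in CD8SP for Cdk1, 1.77 and 4.95 for Birc5, and 1.23 and 2.55 for Cenpe. The levels of others, such as Ube2c (4.89 and 11.6), changed little. On the exon-based value 22 of the 48 genes were called higher in CD8SP and 0 in CD4SP, against 7.47% and 3.38% of all genes, and 19 of them were among the 24 called on gene FPKM. On that value calls were lost for Ccnd2, Ccnb2, Cdkn2c, Aurka and Cenpe and gained for Nuf2, Kif11 and Mki67, and all 24 called genes had an exon-based log2 ratio above 0. Calls were lost with scaling for Ccne2, Ccna2, Cdkn2c, Aurka and Cenpe, and with RefSeq transcripts alone for Ccnd2, Ccna2, Cdkn2c, Aurka, Cenpe and Bub1b. RefSeq transcripts alone also gained calls higher in CD8SP, for Cdc25b, Cenpa, Cenpf, Ndc80, Nuf2, Mad2l1, Kif11 and Mki67. Called in every form (gene FPKM, scaled, RefSeq transcripts alone and exon-based) were 16 genes: Ccne1, Cdk1, E2f1, Foxm1, Aurkb, Birc5, Incenp, Plk1, Bub1, Cdc20, Ube2c, Kif20a, Nusap1, Tpx2, Prc1 and Top2a. These forms rest on the same deposited FPKM and are not independent of each other.

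**Figure D4:**
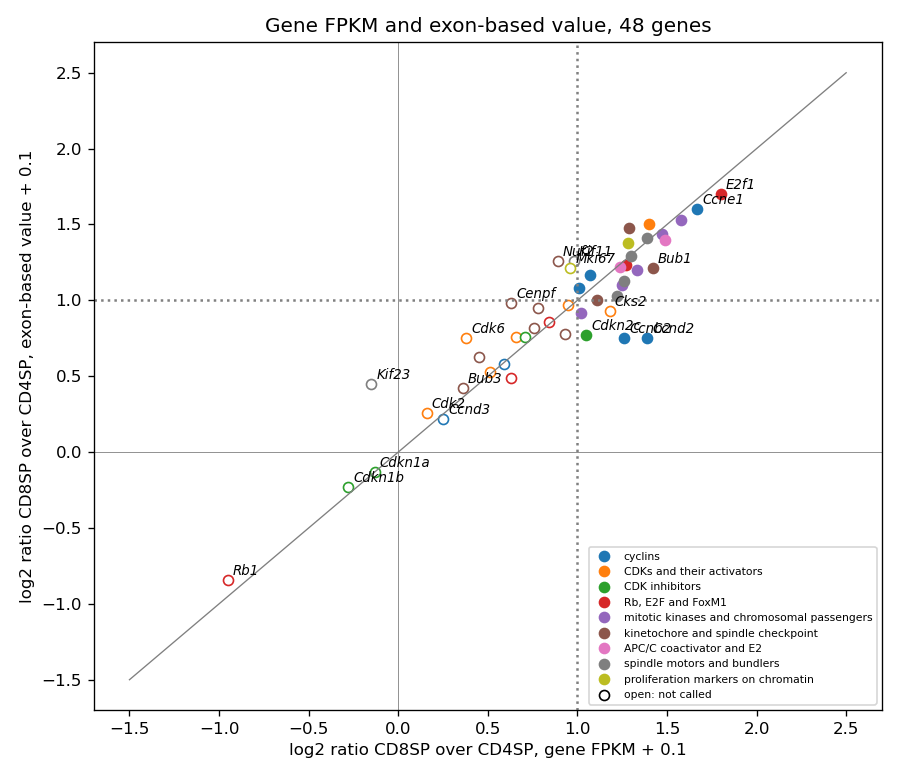
Log2 ratio of CD8SP over CD4SP from gene FPKM (x axis) and from the exon-based value (y axis), both with 0.1 FPKM added, for the 48 genes, coloured by group, with open symbols for genes not called. Points scatter along the diagonal, with the widest gaps at Kif23 (-0.15 against 0.45), Ccnd2 (1.39 against 0.75) and Ccnb2 (1.26 against 0.75). Smaller gaps include those of Cdk6 (0.38 against 0.75) and Nuf2 (0.89 against 1.26), and Rb1 lies alone at the lower left.

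Other genes of the cell cycle, in 5 lists of 135 genes chosen with the same results known, were counted by the same rule. Of 128 at 1 FPKM or more, 41 were called higher in CD8SP and 2 in CD4SP, against 10.0% and 4.76% of all genes. Their median log2 ratio was 0.62, against 0.22 for all genes. After scaling 27 and 2 were called, against 6.88% and 6.68% of all genes. Spindle and cytokinesis genes had 17 of 35 called higher in CD8SP and a median of 1.01. Among them Racgap1, the partner of Kif23, was at 3.92 FPKM in CD4SP and 12.4 in CD8SP (1.63), the chromosome-arm kinesin Kif22 at 0.667 and 4.80 (2.68), and Depdc1b at 0.976 and 4.47 (2.09). Centromere and kinetochore genes had 12 of 29 called higher in CD8SP and 1 in CD4SP (median 0.78), with Dsn1 of the Mis12 complex at 1.10 and 3.47 FPKM (1.58), Kntc1 at 2.95 and 7.98 (1.41) and Pmf1 at 2.68 and 11.6 (2.08). The exon-based values of Pmf1, 6.16 and 10.8 FPKM, were under 2-fold apart. The gene called higher in CD4SP was Ska3, at 1.13 FPKM in CD4SP and listed at 0 in CD8SP, while its exon-based values were 1.51 and 1.58.

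Condensin, cohesin and separase genes had 5 of 17 called higher in CD8SP (median 0.33), led by the separase Espl1 at 0.644 and 2.10 FPKM (1.56) and the condensin subunits Ncapg2 (3.49 and 9.62, 1.44) and Ncaph (2.84 and 7.27, 1.33). Regulators of G1 and G2 had 6 of 31 called (median 0.29): Cdkn3 was at 0.395 and 1.57 FPKM (1.75), Mybl2, a partner of MuvB, at 0.346 and 1.36 (1.71, with exon-based values under 1 FPKM), and Wee1, the kinase that restrains Cdk1, at 1.83 and 5.20 (1.46). In the APC/C list, Anapc15 was at 0.673 and 2.13 FPKM (1.53), with a CD8SP value outside its interval and exon-based values of 1.59 and 2.13, under 2-fold apart, and Ube2s at 1.10 and 0.454 (-1.11).

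Splicing, the subject of the study, was read from the share of a gene's FPKM on transcripts with the longer or upstream form of an event (percent spliced in, PSI). Of the 48 genes, 8 had an event with both forms annotated and at least 1 FPKM in both pools, 12 events in all. PSI differed by at least 20 percentage points in 5 events of 3 genes, Bub1, Ccne2 and Kif20a, against 17.4% of 2766 such events over all genes. All 5 rest on genes under 5 FPKM in both pools, and in 3 of them 1 form was listed at 0 in a pool. With 12 events, no share can be read as particular to these genes. Counting assembled forms as well, 51 of 351 events (14.5%) passed, against 19.2% over all genes.

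Some of these events were tandem acceptors, sites where an exon begins either at 1 AG or at the next, 3 bases on. In Bub1 the longer exon was listed at 0 of 1.39 FPKM in CD4SP and took 40.1% of 3.76 FPKM in CD8SP. In Ccne2 it took 51.4% of 1.39 FPKM in CD4SP, all on assembled transcripts, and 75.8% of 2.91 in CD8SP, all on RefSeq transcripts. In Top2a, where 1 form is not in RefSeq, it took 80.6% of 15.5 FPKM in CD4SP and 58.1% of 40.2 in CD8SP, and in Kif23, likewise, 76.6% of 9.96 and 65.6% of 5.18, under the 20-point threshold. The spliced sequence around each site, from GENCODE M21 transcripts, is printed below with 12 bases of the exon before, the 3 optional bases in capitals, and 15 bases after.
Bub1: aaagtctaatatTAGggaacaaagggtgat
Ccne2: gtcaagacgcagTAGccgtttacaagctaa
Top2a: gctccatgtcggTAGttgatcttgaaagtg
Kif23: attgccaactggTAGtcggaaacgaagatc
The optional bases were TAG at these 4 sites, which were shown because they lie in coding sequence; a further 3-base acceptor, of Tpx2, lies outside it and is not shown. They are at chr2:127821857-127821859 (Bub1, minus strand, exon 8 of 25), chr4:11192815-11192817 (Ccne2, plus, exon 3 of 12), chr11:98995376-98995378 (Top2a, minus, exon 33 of 36) and chr9:61919691-61919693 (Kif23, minus, exon 21 of 23), and leave the reading frame as it is.

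Cassette exons of the set differed by under 20 points. A 144-base coding exon of Cdk2 (chr10:128699976-128700119, minus strand, exon 6 of 8) was included at 21.4% of 7.71 FPKM in CD4SP and 25.0% of 9.93 FPKM in CD8SP. A 99-base coding exon of Nusap1 (chr2:119633720-119633818, plus strand, exon 5 of 11) was included at 100% of 3.93 FPKM and 92.9% of 10.5. Both lengths are multiples of 3. The exons read as follows.
Cdk2: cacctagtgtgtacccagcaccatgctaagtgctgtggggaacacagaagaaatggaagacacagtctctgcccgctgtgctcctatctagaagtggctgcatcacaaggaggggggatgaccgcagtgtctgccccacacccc
Nusap1: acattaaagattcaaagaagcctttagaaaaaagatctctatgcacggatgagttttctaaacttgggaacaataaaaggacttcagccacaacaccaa
In Kif23 a 312-base exon (chr9:61923905-61924216) that sets its longer form, known as CHO1, apart from the shorter one, known as MKLP1, was included at 49.1% of 7.64 FPKM in CD4SP and 54.9% of 6.19 in CD8SP. That event includes a form that is not in RefSeq.

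The other annotated events were these. In Ccnd3 a 45-base extension at a 3' splice site was used at 33.0% in CD4SP and 37.3% in CD8SP, and the retained intron of Birc5 at 5.14% and 5.09%. Tpx2 had 3 events, all under the threshold, the largest a 3-base acceptor at 70.4% and 83.5%. In Ccne2 the alternative first exon was listed at 0 in CD4SP, on assembled transcripts alone, and at 75.8% in CD8SP, on RefSeq transcripts alone. Kif20a had the upstream first exon at 43.1% of 1.70 FPKM in CD4SP and 17.0% of 4.90 in CD8SP, and the longer form of a 5' splice site at 26.4% of 1.31 FPKM and at 0 of 4.07.

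**Figure D5:**
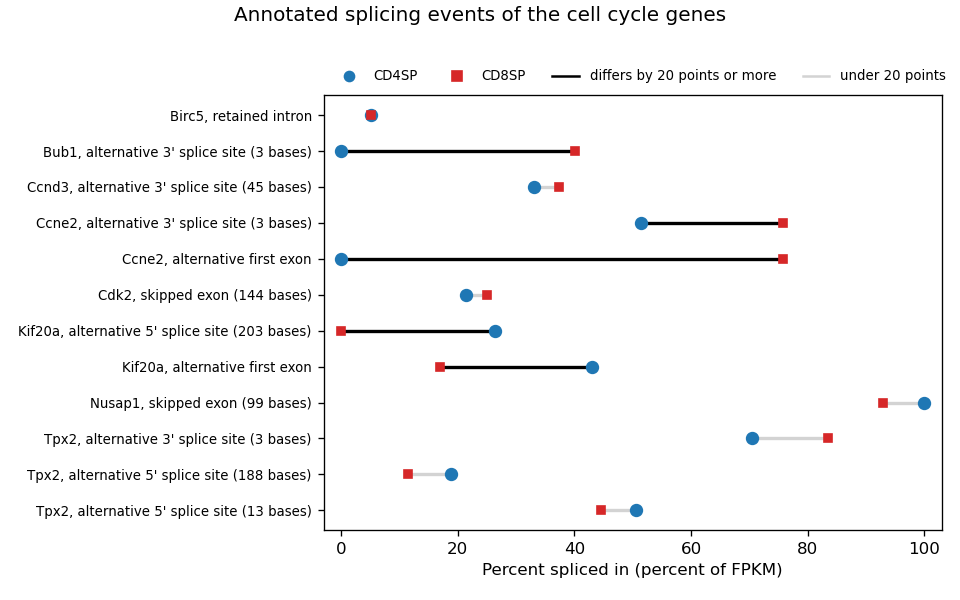
Percent spliced in of the 12 annotated events in CD4SP (blue circles) and CD8SP (red squares), with a black line where the pools differ by 20 points or more. The 5 black lines belong to Bub1, Ccne2 and Kif20a, and the remaining events lie within 13.1 points.

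The long-read tables held 18 isoforms of 6 of the genes in CD4SP, of 8289 isoforms in all, and 30 isoforms of 14 genes in CD8SP, of 9476. Of the 46 genes at 1 FPKM or more, 10.9% had an isoform in CD4SP and 30.4% in CD8SP, and of all 9620 genes at that level 26.6% and 32.1%. Isoforms of 5 genes were in both libraries, of 9 genes, Cdk4, Cks1b, Cdc25b, E2f2, Birc5, Kif23, Nusap1, Tpx2 and Prc1, in CD8SP alone, and of 1, Cks2, in CD4SP alone, while 33 genes had none, Cdkn1b at 34.1 FPKM among them. Cks2 was under 1 FPKM in both pools. Its isoform was flagged as a possible product of template switching in reverse transcription, as was a 2-exon isoform of Rb1 in CD8SP. Of all 4338 genes assigned an isoform, 52.9% were in both libraries, 30.1% in CD8SP alone and 17.0% in CD4SP alone. The read counts of the isoforms are empty in these tables, so the depth is unknown and an isoform missing from a library is not shown to be absent from the cells. Most isoforms of these genes were single-exon, 14 of 18 in CD4SP and 18 of 30 in CD8SP. The same held for the whole libraries, with 5533 of 8289 isoforms in CD4SP and 6128 of 9476 in CD8SP. Ccnd2 and Ccnd3 alone gave 13 isoforms in each library.

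Isoforms of more than 5 exons came from Top2a in both libraries and otherwise from CD8SP. A full match to every junction of an annotated transcript was found for Tpx2 (18 exons, 2813 bases) and Cdc25b (15 exons, 3003 bases) in CD8SP and for Ccnd2 (5 exons, 1624 bases) in CD4SP. In CD8SP a 15-exon isoform of Kif23 (1980 bases) joined known junctions in a combination outside the annotation, and an 11-exon isoform of Rb1 (2981 bases) matched the 3' part of its 27-exon transcript. Top2a, of 36 annotated exons, had 1 isoform of 16 exons in CD4SP and 2 of 16 and 14 exons in CD8SP. With isoforms limited to those with under 60% A in the genome after their 3' end, a guard against priming inside A-rich stretches, 5 remained in CD4SP and 12 in CD8SP. Over the whole libraries, 2980 of 8289 isoforms remained in CD4SP and 3783 of 9476 in CD8SP.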

How the data were processed

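Mature CD4SP and CD8SP thymocytes were profiled by PacBio long reads and Illumina short reads. The deposited short-read files, Cufflinks output per the file headers, hold for RefSeq and assembled transcripts an FPKM value and its bounds, in 1 file per lineage. Each file was taken as pooled over the 4 lanes of its lineage, since the labels map no file to a lane and do not say whether lanes share a library. The submitters' processing notes name GRCm38, TopHat2 2.0.14, Cufflinks 2.1.1, RSEM 1.3.1, GSNAP, FastQC and Trimmomatic, without their roles. The deposited long-read tables list isoforms with length, exon number, category and, per the file headers, the percent of A in the genome beyond the 3' end. The sources used here give no read numbers, so the depth behind each value is unknown. The deposited table of TPM per chained isoform was not used here.

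Gene FPKM is the sum over RefSeq transcripts of a gene (29511 of 30082 identifiers matched a symbol of the GRCm38.p6 table) and assembled multi-exon transcripts that share an intron with that gene alone, with interval bounds summed likewise. In 6 of the 48 genes a sum lay outside its interval, so the intervals are an incomplete measure of error. The exon-based value used transcripts of at least 200 bases. Splicing events of 7 types were built from intron chains, and retained introns needed 10 exonic bases on each side. The calling code was run on simulated data, in which genes had either the same value in both pools or values well over 2-fold apart. That run checks the code and cannot give the error rate of calls near 2-fold in these data. Gene positions and promoters come from RefSeq (GRCm38.p6), exon numbers and exon sequences from GENCODE M21 (GRCm38). Every one of the 48 genes is named, and of the other lists the 3 called genes with the highest and the 3 with the lowest log2 ratio. The genes, lists and thresholds were chosen with earlier results of these data known. Work was done in Python 3.11.15 with numpy 2.4.6 and matplotlib 3.10.9.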

Additional observations from a re-analysis of the deposited data

How the results depend on the processing

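The count of 24 genes called higher in CD8SP stayed within 1.5 times (17 to 26) except with a minimum of 5 FPKM, which gave 15 since fewer genes were tested; the lowest of that range came from a pseudocount of 1 FPKM and the highest from RefSeq transcripts alone. Leaving out genes whose FPKM lies outside its interval, a choice made after seeing the data, gave 21. The median log2 ratio ran from 0.81 (scaled) to 1.10 (RefSeq transcripts alone). Calls higher in CD4SP went from 0 to 1 with scaling (Rb1) and to 1 with RefSeq transcripts alone (Ccnd2). With RefSeq transcripts alone the log2 ratio of Ccnd2 was -7.23, since its transcript is listed at 0 in CD8SP, and that of Cdkn2c was -0.21; the cause of the latter was not tested. Splicing events called fell from 5 to 0 at 5 FPKM and 2 at a difference of 30 points, and came to 51 with assembled forms. Long-read isoforms went from 18 to 5 under 60% A and 4 with more than 1 exon in CD4SP, and from 30 to 12 and 12 in CD8SP. Other cell cycle genes called higher in CD8SP went from 41 to 27 with scaling, added after seeing the data, while the share over all genes went from 10.0% to 6.88%. No paired analysis was possible because each lineage has 1 value, with none per lane. What depth limits cannot be given, as the sources used here do not give read numbers.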

Other observations

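Long-read isoforms on the strand opposite to these genes were 6 in CD4SP and 10 in CD8SP. They lay at Ccnd3 (3 in CD4SP and 5 in CD8SP), E2f2 (1 and 3), Rb1 (1 in each), Cdk6 (1 in CD4SP) and Kif11 (1 in CD8SP). The isoforms at E2f2, Rb1, Cdk6 and Kif11 had 85% to 95% A in the genome after their 3' end. All of these were over the limit set above as a guard against priming inside A-rich stretches. At Ccnd3, those under that limit had 40% A in CD4SP and 15%, 20% and 45% in CD8SP. The other Ccnd3 isoforms had 75% to 95%. Whether such priming gave rise to the isoforms over the limit was not tested. No read counts are given for the opposite-strand isoforms, so no level can be compared. Whether the short-read values were counted by strand is not stated by the labels or headers.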
